A study of Mus musculus with 12 samples.

Results

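The transcripts of 10 polycomb genes were followed in mouse embryoid bodies, floating clusters of embryonic stem (ES) cells that have begun to differentiate. The genes were Ezh2, Ezh1, Eed, Suz12, Jarid2, Mtf2, Rnf2, Ring1, Bmi1 and Cbx7, named as a set of core and accessory subunits and each read by the brightest probe set annotated to that gene alone. All 10 had such a probe set, out of 19938 genes with one, and all 10 were among the 15950 genes bright enough to be tested. The set was named by the roles of its members, but it was chosen with earlier results of these data known.

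The series held 12 arrays, 1 for each sample, from A2lox ES cells of the 129P2/OlaHsd strain, a line into which a doxycycline (dox) driven transgene can be placed. Geminin knockdown embryoid bodies, in which 0.5 µg/ml dox given from day 0 induced microRNAs against the Geminin transcript, were collected on day 4 (3 arrays) beside the same line without dox (3 arrays). Geminin overexpression embryoid bodies, in which the same dose from day 3 induced Geminin, were collected on day 5 (2 arrays, replicates 1 and 2) or day 4 (1 array, replicate 3), beside the same line without dox on day 5 (2 arrays) and day 4 (1 array). The labels do not say how many clones each line stands for, nor whether replicates were separate cultures, and p-values therefore reflect no more than the variation among these samples, which may be technical.

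Polycomb proteins keep developmental genes silent through 2 kinds of complex. Polycomb repressive complex 2 (PRC2) methylates histone H3 at lysine 27; it needs a catalytic subunit, Ezh2 or its paralog Ezh1, together with Eed and Suz12, and accessory subunits such as Jarid2 and Mtf2 help bring it to CpG-rich DNA. Polycomb repressive complex 1 (PRC1) ubiquitinates histone H2A through the RING proteins Rnf2 (Ring1B) and Ring1 (Ring1A), paired with a PCGF protein such as Bmi1 (Pcgf4), and chromobox proteins such as Cbx7 read the PRC2 mark. In ES cells these complexes lie on genes that mesoderm, endoderm and neural cells later use, and the chromobox and PCGF subunits are known to be exchanged as the cells differentiate. Geminin, a nuclear protein that restrains DNA replication licensing, has been reported to act with polycomb in holding back mesendoderm genes, which is the question that makes these subunits of interest here.

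The array values speak of transcripts, and the promoters of 5 of the genes are shown because the results below turn on them: Suz12, Mtf2 and Cbx7 were high and low on much the same arrays, Ring1 was high where those were low, and Bmi1 had the widest range. Each sequence is the 250 bases before the first listed transcription start, 5′ to 3′ on the gene's strand, taken from RefSeq (GRCm38.p6). Capitals mark matches, on either strand, to the GC box GGGCGG, to CCAAT, to the E-box CACGTG, to the ETS motif CCGGAAGT or to an E2F motif (TTTCCCGC, TTTGGCGC, TTTCGCGC or TTTGCCGC).
Suz12, chr11:79992856-79993105, plus strand: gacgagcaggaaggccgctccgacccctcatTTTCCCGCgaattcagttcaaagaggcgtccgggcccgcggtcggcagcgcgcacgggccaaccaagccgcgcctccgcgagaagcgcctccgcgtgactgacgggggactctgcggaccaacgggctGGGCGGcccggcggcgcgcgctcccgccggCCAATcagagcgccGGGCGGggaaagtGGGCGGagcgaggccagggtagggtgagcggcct
Mtf2, chr5:108065424-108065673, plus strand: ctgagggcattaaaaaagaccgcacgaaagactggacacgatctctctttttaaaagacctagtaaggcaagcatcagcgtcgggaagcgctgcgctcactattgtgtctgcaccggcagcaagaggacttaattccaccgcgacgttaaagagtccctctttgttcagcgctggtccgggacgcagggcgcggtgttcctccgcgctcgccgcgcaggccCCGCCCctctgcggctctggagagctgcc
Cbx7, chr15:79932647-79932896, minus strand: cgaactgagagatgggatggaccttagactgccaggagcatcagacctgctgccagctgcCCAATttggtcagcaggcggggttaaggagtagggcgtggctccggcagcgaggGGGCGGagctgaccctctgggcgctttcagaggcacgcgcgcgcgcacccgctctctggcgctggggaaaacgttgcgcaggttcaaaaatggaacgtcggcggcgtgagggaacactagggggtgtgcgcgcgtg
Ring1, chr17:34024681-34024930, minus strand: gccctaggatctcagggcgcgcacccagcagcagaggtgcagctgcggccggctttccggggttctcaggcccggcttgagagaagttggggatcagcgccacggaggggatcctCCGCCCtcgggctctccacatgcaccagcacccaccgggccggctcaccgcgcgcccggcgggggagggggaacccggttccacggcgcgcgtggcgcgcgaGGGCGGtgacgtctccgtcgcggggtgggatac
Bmi1, chr2:18676768-18677017, plus strand: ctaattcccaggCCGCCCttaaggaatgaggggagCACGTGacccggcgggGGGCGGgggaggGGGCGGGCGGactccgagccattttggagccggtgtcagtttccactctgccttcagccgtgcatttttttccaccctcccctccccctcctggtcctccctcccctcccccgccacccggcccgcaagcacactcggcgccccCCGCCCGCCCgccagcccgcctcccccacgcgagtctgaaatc

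The promoter table held a start site for all 10 genes, and 2 (Jarid2 and Mtf2) had a further one. At the first listed start, 7 of the 10 windows held a GC box, against 32.7% of 32851 mouse windows of the same length, and 4 held CCAAT, against 33.8%. An E2F motif was found in the Suz12 window alone, against 1.86% of all windows, and an E-box in the Bmi1 window alone, against 6.02%. In the Bmi1 window, GC boxes overlap each other at both runs of 10 capitals. No window of the 10 held the ETS motif, against 2.88% of all windows. The windows held between 12 (Eed) and 37 (Suz12) CpG pairs, against a median of 6 over all windows. These matches describe letters and not binding.

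Array means of the deposited intensities lay between 677.3 and 696.6. Levels below are log2(intensity + 1) after quantile normalization, and they are compared between arrays and never between genes. Gmnn, the Geminin gene, was lower on all 3 knockdown arrays with dox than on the 3 without (log2 difference -0.50 ± 0.14, SE; limma adjusted p = 0.965), and higher on all 3 overexpression arrays with dox than on the 3 without (0.82 ± 0.14, SE; limma adjusted p = 0.922). Markers of differentiating ES cells were present: Pou5f1, the Oct4 gene of pluripotent cells, lay between 11.96 and 12.77 over the 12 arrays and was lower on day 5 than on day 4 of the overexpression line (-0.59 ± 0.10, SE; limma adjusted p = 0.0383). Day cannot be told apart from replicate 3 there. With arrays of equal replicate number treated as a block, limma called 0 genes in that comparison. The mean of 15 pluripotency markers was 10.33 and 10.57 on the replicate 2 arrays of the knockdown line (dox and control), against 9.73 to 10.22 on its other arrays. It was 10.31 and 10.15 on the replicate 2 arrays of the overexpression line on day 5, against 9.63 and 9.48 on the replicate 1 arrays. The mean of 10 primitive streak markers ran the other way, at 7.51 and 7.10 on the replicate 2 arrays of the knockdown line, against 7.88 to 8.80 on its other arrays, and at 8.88 and 8.93 on the replicate 2 arrays of day 5, against 9.59 and 9.73 on the replicate 1 arrays. The mean of 13 primitive and visceral endoderm markers was 9.46 and 9.74 on the replicate 2 arrays of the knockdown line, against 8.32 to 8.72 on its other arrays. The mean of 7 neural markers lay between 7.71 and 8.32. ES cells had been kept on mouse embryonic fibroblasts that were removed before aggregation, and the mean of 12 fibroblast markers lay between 7.23 and 7.85, highest on the replicate 2 arrays of day 5. In whole embryoid bodies, fewer cells of a type and less RNA per cell cannot be told apart.

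Neither lowering nor raising Geminin was followed by a called change in any of the 10 genes. In the knockdown line 6 were higher and 4 lower with dox, against 52.7% of all genes higher, with a median log2 difference of 0.012, against 0.010 over all tested genes. In the overexpression line 4 were higher and 6 lower, against 56.7% of all genes higher, with a median of -0.016, against 0.014. Limma called 0 of 10 members in each line at an adjusted p under 0.05, where 0.00627% of all genes were called in each (1 gene, Hprt, in both). Gmnn, the targeted gene, was not called in either line, so a missing call does not show an unchanged gene. At an unadjusted p under 0.05 there were also 0 of 10 members in each, against 3.76% of all genes in the knockdown line and 0.934% in the overexpression line. No member had its 3 dox arrays all above or all below its 3 controls in either line, as 8.22% of genes had in the knockdown line and 3.79% in the overexpression line. The 95% intervals of the 10 members ran from 0.662 to 1.68-fold in the knockdown line and from 0.633 to 1.53-fold in the overexpression line, with the outermost bounds set by Bmi1 and Cbx7. For Ezh2 they ran from 0.895 to 1.18-fold and from 0.869 to 1.14-fold, and for Mtf2 from 0.790 to 1.13-fold and from 0.822 to 1.17-fold. With dox in the knockdown line all 10 primitive streak markers were higher (median 0.68, 0 called by limma) and 13 of 15 pluripotency markers lower (median -0.29, 0 called), as were 12 of 13 primitive and visceral endoderm markers (median -0.37, 0 called). With dox in the overexpression line 13 of 15 pluripotency markers were higher (median 0.12, 0 called). Their part in the members' values was not tested. The smallest p that an exact two-sided permutation test can give here is 0.1 in the knockdown line and 0.167 in the overexpression line, so a single gene cannot reach 0.05 by that test.

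**Figure D1:**
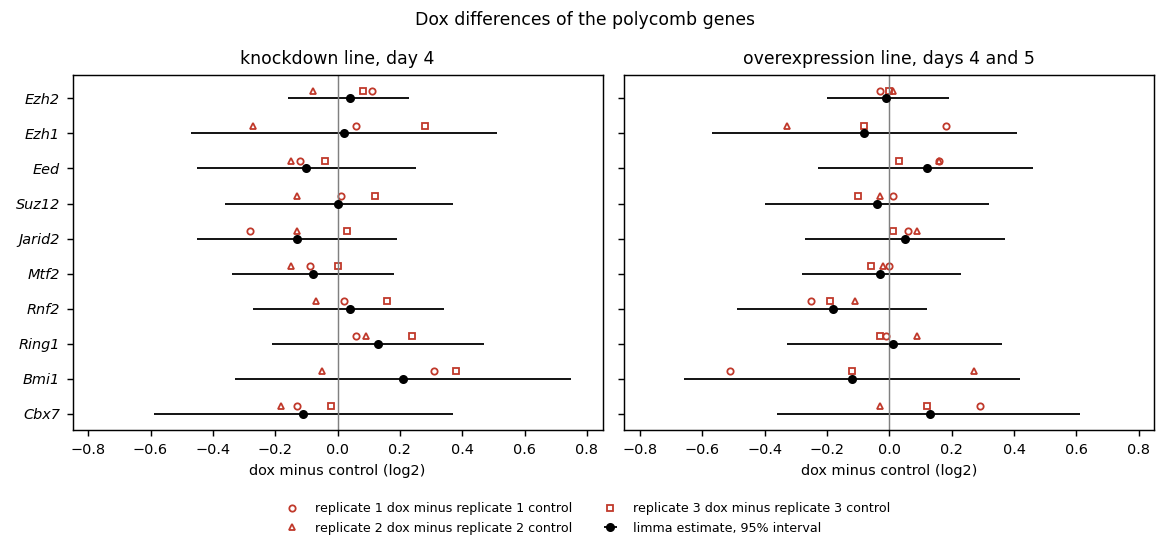
Dox minus control (log2, x axis) of the 10 polycomb genes in the knockdown line (left) and the overexpression line (right). Black points and bars are limma estimates with 95% intervals; open symbols are the differences between arrays of equal replicate number. Every interval crosses 0, and Ezh2 has the narrowest (-0.16 to 0.23 and -0.20 to 0.19).

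Of the PRC2 catalytic genes, Ezh2 was the steadiest of the set. Ezh2, the main H3 lysine 27 methyltransferase of dividing cells, stood at 11.34, 11.27 and 11.31 with dox in the knockdown line (replicates 1, 2 and 3), against 11.23, 11.35 and 11.22 without. Ezh2 stood at 11.38 and 11.22 with dox in the overexpression line on day 5 (replicates 1 and 2) and 11.28 on day 4, against 11.41, 11.21 and 11.28 without. The dox and control values overlapped in both lines, and the whole range over 12 arrays was 0.20, at or above that of 1.0% of tested genes (median range of all genes 0.59). The log2 difference of Ezh2 with dox was 0.04 ± 0.09 (SE) in the knockdown line (limma adjusted p = 0.978) and -0.01 ± 0.09 (SE) in the overexpression line (limma adjusted p = 1.00). Ezh1, the paralog known for its part in resting and differentiated cells, stood at 8.41, 8.92 and 8.77 with dox in the knockdown line, against 8.35, 9.20 and 8.49 without. Ezh1 stood at 8.66, 8.70 and 8.49 with dox in the overexpression line (day 5 replicates 1 and 2, then day 4), against 8.49, 9.03 and 8.57 without. Replicate 2 was the highest array of its group in each group that held one, and the dox difference was 0.02 ± 0.22 (SE; limma adjusted p = 0.993) in the knockdown line and -0.08 ± 0.22 (SE; limma adjusted p = 1.00) in the overexpression line.

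The other core PRC2 genes followed the replicate numbers more than dox. Eed, which binds methylated lysine 27 and holds the complex together, stood at 10.12, 10.39 and 10.19 with dox in the knockdown line, against 10.23, 10.54 and 10.23 without. Eed stood at 10.01, 10.46 and 10.26 with dox in the overexpression line, against 9.85, 10.30 and 10.23 without. Between arrays of equal number Eed was lower with dox in all 3 knockdown pairs (by -0.12, -0.15 and -0.04) and higher in all 3 overexpression pairs (by 0.16, 0.16 and 0.03). In the knockdown line 4 members went one way in all 3 pairs (Eed, Mtf2 and Cbx7 lower, Ring1 higher), where 31.7% of all genes did. The replicate 3 difference of Mtf2 rounds to 0. In the overexpression line 2 were higher in all 3 pairs (Eed and Jarid2), where 16.6% of all genes were, and Rnf2 was lower. In either direction 27% of all genes went one way there. For Eed the limma difference between the 2 dox effects was -0.22 ± 0.22 (SE; adjusted p = 1.00). A further Eed probe set lay near the floor of the tested range, between 6.08 and 6.59, and was not used. Suz12, the zinc finger subunit that PRC2 needs for its activity, stood at 10.55, 10.93 and 10.82 with dox in the knockdown line, against 10.54, 11.05 and 10.70 without. Suz12 stood at 10.35, 10.69 and 10.59 with dox in the overexpression line, against 10.34, 10.72 and 10.69 without. Its dox difference was 0.00 ± 0.16 (SE; limma adjusted p = 0.998) and -0.04 ± 0.16 (SE; limma adjusted p = 1.00).

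Among the accessory subunits, Jarid2, a DNA-binding relative of the Jumonji demethylases without enzyme activity, stood at 11.38, 11.86 and 11.61 with dox in the knockdown line, against 11.66, 11.998 and 11.58 without. Jarid2 stood at 11.13, 11.30 and 11.34 with dox in the overexpression line, against 11.07, 11.21 and 11.33 without. The dox groups overlapped their controls. Both day 4 arrays of the overexpression line lay below all 6 of the knockdown line, as 8.41% of all genes did, a separation lost with median centring. The dox difference of Jarid2 was -0.13 ± 0.14 (SE; limma adjusted p = 0.965) in the knockdown line and 0.05 ± 0.14 (SE; limma adjusted p = 1.00) in the overexpression line. Mtf2, a Polycomb-like protein that reads unmethylated CpG-rich DNA, stood at 10.93, 11.20 and 11.09 with dox in the knockdown line, against 11.03, 11.35 and 11.09 without. Mtf2 stood at 10.88, 11.06 and 11.03 with dox in the overexpression line, against 10.88, 11.08 and 11.09 without. Its dox difference was -0.08 ± 0.12 (SE; limma adjusted p = 0.965) and -0.03 ± 0.12 (SE; limma adjusted p = 1.00), with median centring turning the sign in the knockdown line (0.04).

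The RING genes of PRC1 had no called difference either. Rnf2, the main ubiquitin ligase of PRC1 in ES cells, stood at 10.12, 10.20 and 10.10 with dox in the knockdown line, against 10.10, 10.27 and 9.94 without. Rnf2 stood at 9.95, 10.41 and 10.04 with dox in the overexpression line, against 10.19, 10.52 and 10.23 without. It was lower with dox in all 3 overexpression pairs of equal number (by -0.25, -0.11 and -0.19), as 10.5% of all genes were, and its limma difference was -0.18 ± 0.14 (SE; adjusted p = 1.00). Ring1, its paralog, stood at 8.46, 8.09 and 8.35 with dox in the knockdown line, against 8.40, 8.004 and 8.11 without. Ring1 stood at 8.49, 8.18 and 8.37 with dox in the overexpression line, against 8.51, 8.09 and 8.40 without. Its replicate 2 array was the lowest of every group that held one, and it was higher with dox in all 3 knockdown pairs of equal number (by 0.06, 0.09 and 0.24), as 19.5% of all genes were (0.13 ± 0.15, SE; limma adjusted p = 0.965).

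Bmi1 and Cbx7 varied most. Bmi1, the PCGF subunit best known from stem cells of adult tissues, stood at 8.18, 8.08 and 8.03 with dox in the knockdown line, against 7.88, 8.13 and 7.65 without. Bmi1 stood at 8.13, 9.27 and 8.17 with dox in the overexpression line, against 8.63, 9 and 8.29 without. Its dox difference went opposite ways in replicates 1 and 2 of the overexpression line (-0.51 and 0.27), and the fitted values were 0.21 ± 0.24 (SE; limma adjusted p = 0.965) in the knockdown line and -0.12 ± 0.24 (SE; limma adjusted p = 1.00) in the overexpression line. Cbx7, the chromobox subunit that prevails in ES cells, stood at 9.94, 10.27 and 10.20 with dox in the knockdown line, against 10.07, 10.44 and 10.22 without. Cbx7 stood at 9.30, 9.86 and 9.96 with dox in the overexpression line, against 9.01, 9.89 and 9.84 without. Its dox difference was -0.11 ± 0.22 (SE; limma adjusted p = 0.974) and 0.13 ± 0.22 (SE; limma adjusted p = 1.00). The range over 12 arrays was 1.63 for Bmi1 and 1.43 for Cbx7, at or above that of 96.6% and 95% of tested genes.

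**Figure D2:**
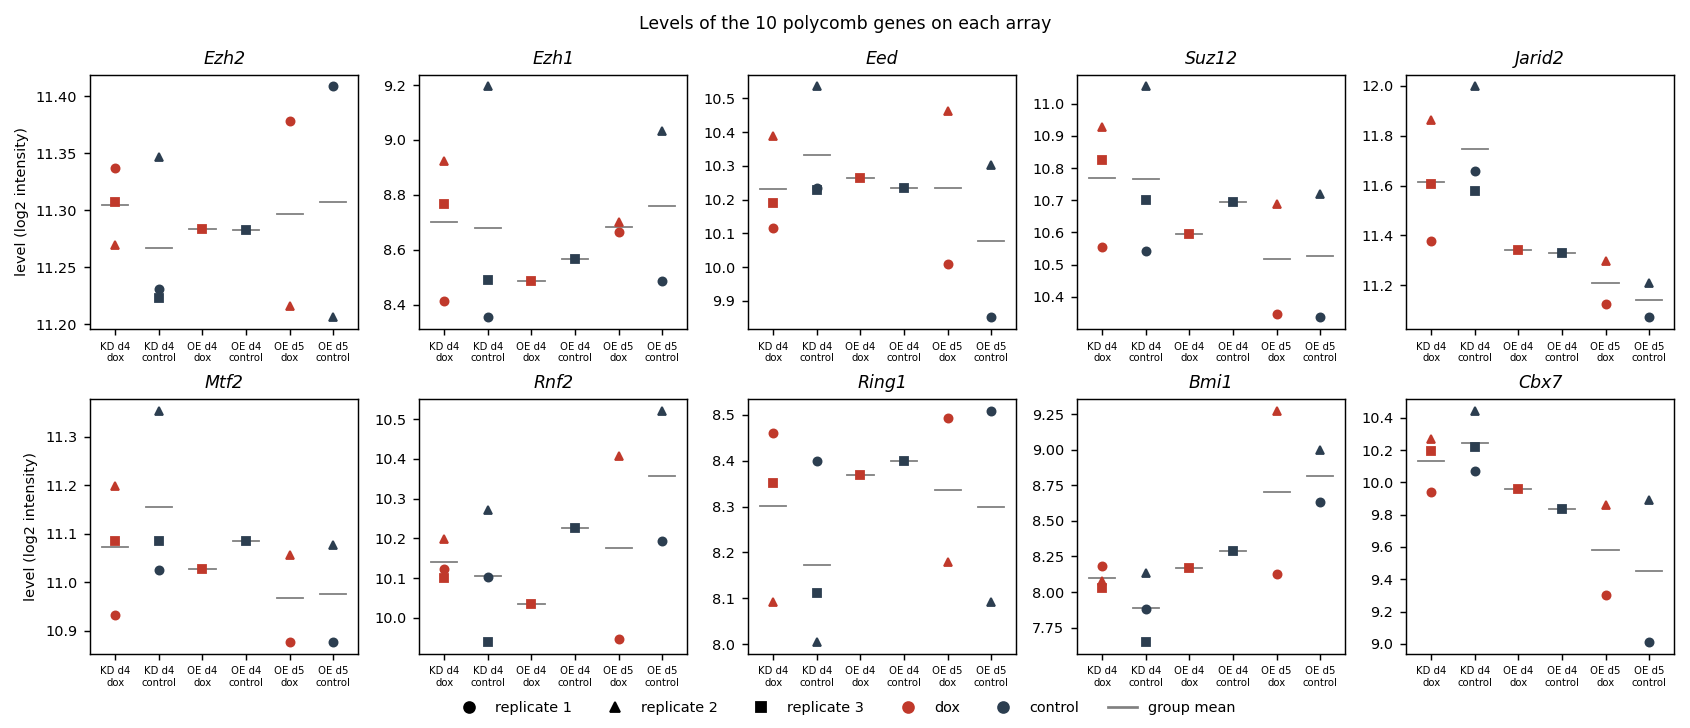
Level (log2 intensity, y axis, scaled to each gene) of the 10 polycomb genes on each array, by line, day (d4, d5) and treatment; symbols give the replicate number, colours dox or control, and grey lines group means. Dox and control overlap in every panel, and triangles (replicate 2) lie high for Eed, Suz12, Mtf2 and Cbx7 and low for Ring1. Jarid2 is lower on both day 4 overexpression (OE) arrays than on every knockdown (KD) array, as 8.41% of all genes are.

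The 2 dox effects were also set against each other, knockdown minus overexpression, within the same model. Of the members 6 had a positive and 4 a negative difference, against 50.1% of all genes positive. Limma called 0 of 10 members (0% of all genes), and 0 had an unadjusted p under 0.05, against 2.13% of all genes. Bmi1 differed by 0.33 ± 0.34 (SE) and Cbx7 by -0.24 ± 0.31 (SE), the largest of the 10 (limma adjusted p = 1.00 for each). The lines also differ in the day on which dox began and in the day of collection.

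The overexpression line gives the comparison of day 5 with day 4, in which day cannot be told apart from replicate 3. Bmi1 stood between 8.13 and 9.27 on the 4 day 5 arrays and at 8.17 and 8.29 on the 2 day 4 arrays, and was higher by 0.53 ± 0.26 (SE; 1.44-fold, 95% interval 0.971 to 2.15; limma adjusted p = 0.387). Cbx7 stood between 9.01 and 9.89 on day 5 and at 9.96 and 9.84 on day 4, and was lower by -0.38 ± 0.23 (SE; 0.767-fold, 95% interval 0.537 to 1.10; limma adjusted p = 0.505). Both overlap between the days, since 1 day 5 array of Bmi1 lay below both day 4 arrays and 2 day 5 arrays of Cbx7 lay between them. Jarid2 stood between 11.07 and 11.30 on day 5 and at 11.34 and 11.33 on day 4 (-0.16 ± 0.15, SE; limma adjusted p = 0.705), the 1 member without overlap, where 30.5% of all genes had none. That separation was lost with the deposited scaling and with median centring. Limma called 0 of 10 members, against 0.558% of all genes, and 0 at an unadjusted p under 0.05, against 14.2%, with 4 members higher and 6 lower, where 49.8% of all genes were higher. With array weights it called Bmi1 (0.65, adjusted p = 0.0208), a setting that raised the calls over all genes to 2567. In the same comparison 12 of 13 primitive and visceral endoderm markers were higher (median 0.71, 0 called) and 8 of 10 tested fibroblast markers were higher (median 0.33, 0 called, 4 with an unadjusted p under 0.05). Of the primitive streak markers 8 of 10 were lower (median -0.29, 0 called). Across the 12 arrays Bmi1 had a Pearson correlation of 0.83 with the mean of the fibroblast markers. Its correlation was -0.82 with the mean of the neural markers and 0.78 with that of developmental genes known as polycomb targets. Jarid2 had -0.94 with the mean of the primitive streak markers and -0.88 with that of the developmental genes, and Cbx7 -0.82 and -0.74. With the fibroblast markers Jarid2 had -0.76 and Cbx7 -0.60. These values are descriptions over arrays that share day and line, with lists picked for large values among the 9. The part of these markers in the values of Bmi1, Cbx7 and Jarid2 was not tested.

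On day 4 the lines were compared at their modelled control levels. Jarid2 stood at 11.34 and 11.33 on the 2 overexpression arrays and between 11.38 and 11.998 on the 6 knockdown arrays. Its difference was -0.43 ± 0.18 (SE; 0.740-fold, 95% interval 0.565 to 0.968; limma adjusted p = 0.379). Its groups did not overlap, as held for 16.5% of all genes, but they did overlap after median centring. Jarid2 was the 1 of 10 members with an unadjusted p under 0.05, where 11.6% of all genes had one, and limma called 0 of 10, against 0.307% of all genes. Of the members 4 were higher and 6 lower, where 46.9% of all genes were higher. Cbx7 differed by -0.41 ± 0.27 (SE; limma adjusted p = 0.605) and Bmi1 by 0.40 ± 0.30 (SE; limma adjusted p = 0.653). Primitive streak markers differed in the same comparison, with all 10 higher in the overexpression line (median 1.80 on the log2 scale, 3 called by limma) and 12 of 15 pluripotency markers lower (median -0.68, 0 called). Their part in the Jarid2 value was not tested.

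The widest shared movement of the genes lay between replicates, a comparison picked after the values were seen. On day 5 of the overexpression line all 10 members separated the 2 replicate 2 arrays from the 2 replicate 1 arrays, where 66.9% of all genes did. Of these 8 were above, where 34.5% of all genes were, and 2 below, where 32.4% were. Replicate 2 was higher for Cbx7 (by 0.72), Bmi1 (0.76), Eed (0.45), Rnf2 (0.39), Suz12 (0.36), Ezh1 (0.29), Mtf2 (0.19) and Jarid2 (0.15), and lower for Ring1 (-0.37) and Ezh2 (-0.18). In the knockdown line both replicate 2 arrays lay outside the range of the other 4 for 8 of 10 members, where 24.4% of all genes did. There Ezh1 (0.55), Jarid2 (0.38), Suz12 (0.34), Eed (0.27), Cbx7 (0.25), Mtf2 (0.24) and Rnf2 (0.17) were higher and Ring1 (-0.28) was lower, while Bmi1 (0.17) and Ezh2 (0.03) overlapped. With median centring Ezh2 had the other sign on day 5 (0.04), the rest kept their direction, and 3 of the 10 stayed clear of overlap in the knockdown line. That scaling moved the median of all genes to 0.12 in the day 5 comparison. On the same replicate 2 arrays the pluripotency mean was higher and the primitive streak mean lower, by the values given above. In the knockdown line the endoderm mean was higher too. Single pluripotency genes differed in direction. Esrrb and Nr0b1 were higher on the replicate 2 arrays in both lines, but Pou5f1 was lower in both. Pou5f1 stood at 12.56 and 12.54 on those of the knockdown line, against 12.63 to 12.77 on its other arrays. Nanog was lower in the knockdown line and higher on day 5, and Tdgf1 and Klf4 were lower on day 5. The part of all these markers in the members' differences was not tested.

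**Figure D3:**
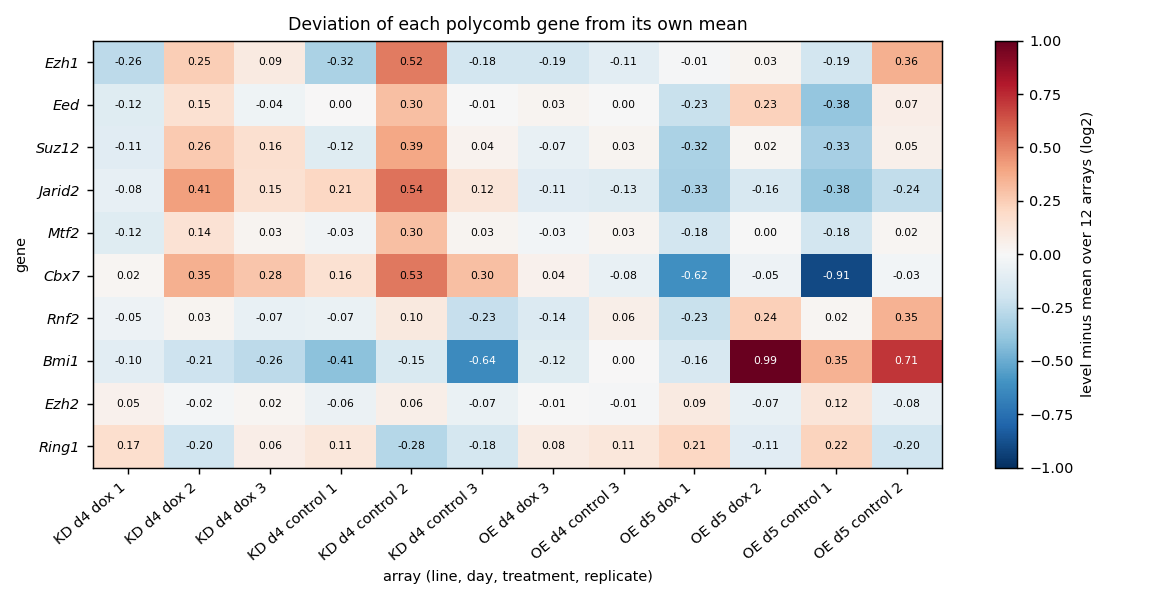
Each cell is a gene's level on 1 array minus its mean over the 12 arrays (log2; red above, blue below), with arrays ordered by line (KD, knockdown; OE, overexpression), day, treatment and replicate. The knockdown replicate 2 columns are red for Ezh1, Eed, Suz12, Jarid2, Mtf2 and Cbx7 and blue for Ring1, while Bmi1 is reddest on the day 5 replicate 2 arrays.

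Suz12 and Mtf2 ran close together within both lines. Their Pearson correlation was 0.94 over the 6 knockdown arrays and 0.99 over the 6 overexpression arrays. Suz12 and Cbx7 also ran together (0.92 in each line), and Suz12 and Ring1 ran opposite (-0.82 and -0.81). These values are descriptions with no p, because arrays of a line share replicate numbers, day and treatment. The pairs are named for their values, and no share over all gene pairs was computed. Over all 12 arrays Mtf2 was closer to Apoc1 (0.971) than to Suz12 (0.96). Ezh2 ran differently in the 2 lines. In the knockdown line its correlation was 0.40 with Suz12 and 0.02 with Ring1. In the overexpression line it ran with Ring1 (0.94) and opposite to Suz12 (-0.95).

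Across all 12 arrays the tested genes whose levels were most like each member, by Pearson r, are given here. Genes with predicted, clone or Rik symbols, olfactory and vomeronasal receptors, microRNAs and small nucleolar RNAs were left out. No p is given, since the 12 arrays are not independent. Suz12 was most like Apoc1 (0.967) and Tdrd12 (0.963), and Mtf2 like Apoc1 (0.971) and Wdr34 (0.962). Cbx7 was most like Trim24 (0.988) and Cdk17 (0.988), and Jarid2 like Orc1 (0.980), an origin recognition subunit, and Pipox (0.980). Eed was most like Akap1 (0.965) and Mrpl38 (0.948), and Ring1 like Mkks (0.970) and Polr2d (0.961), an RNA polymerase II subunit. Bmi1 was most like Ly75 (0.973) and Dock1 (0.970), and Rnf2 like Gadd45g (0.930) and Nucks1 (0.920). Ezh1 was most like Smtnl2 (0.921) and Acy3 (0.920), and Ezh2 like Pgm3 (0.910) and Spc25 (0.866), a kinetochore subunit.

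The other genes of the pathway gave few calls. Of 8 further PRC2 subunits, limma called 0 in every comparison and 0 had an unadjusted p under 0.05. Epop, an accessory subunit of PRC2 in ES cells, differed by -0.17 ± 0.13 (SE) with dox in the knockdown line (limma adjusted p = 0.965) and by 0.07 ± 0.13 (SE) in the overexpression line (limma adjusted p = 1.00). Rbbp7, a histone-binding subunit, differed by 0.12 ± 0.10 (SE; limma adjusted p = 0.965) and -0.05 ± 0.10 (SE; limma adjusted p = 1.00). Phf1, a relative of Mtf2, differed by -0.09 ± 0.08 (SE; limma adjusted p = 0.965) and 0.07 ± 0.08 (SE; limma adjusted p = 1.00).

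Of 27 further genes listed as PRC1 subunits and partners, limma called 0 in each dox comparison. The list also holds Asxl1, which belongs with an H2A deubiquitinase and not with PRC1 itself. Scml2, a sex comb on midleg relative, was the 1 of 27 with an unadjusted p under 0.05 in the knockdown line, a share near the 3.76% of all genes. It stood at 7.16, 6.999 and 6.91 with dox, against 6.68, 6.71 and 6.60 without, so that the groups did not overlap, as in 8.22% of all genes (0.36 ± 0.12, SE; limma adjusted p = 0.965). In the overexpression line 0 had an unadjusted p under 0.05, and the smallest p was that of Pcgf1, the PCGF subunit of the Kdm2b complex (-0.21 ± 0.16, SE; limma adjusted p = 1.00). Between day 5 and day 4 limma called 0 of 27, with 6 lower and 0 higher at an unadjusted p under 0.05, against 14.2% of all genes in either direction. Phc1, a polyhomeotic subunit of the Cbx7 complexes, stood at 10.71, 10.80, 10.54 and 10.90 on day 5 (dox replicates 1 and 2, then controls), against 11.53 and 11.33 on day 4 (-0.69 ± 0.14, SE; limma adjusted p = 0.0671). Asxl1, a partner of the H2A deubiquitinase Bap1, was at -0.42 ± 0.10 (SE; limma adjusted p = 0.0933), Kdm2b, which binds CpG islands for PRC1, at -0.30 ± 0.09 (SE; limma adjusted p = 0.167), and Pcgf2, a close paralog of Bmi1, at -0.34 ± 0.13 (SE; limma adjusted p = 0.270). These 4 were picked for the smallest p of the 27 in this same comparison. That their day 5 arrays lay below both day 4 arrays, as in 15.1% of all genes, is therefore no separate result. In the overexpression line against the knockdown line on day 4 limma called 0 of 27, with 7 higher and 0 lower at an unadjusted p under 0.05, against 11.6% of all genes in either direction. Among the 7 were Bcor, a corepressor of the Pcgf1 complex (0.69 ± 0.23, SE; limma adjusted p = 0.281), and E2f6, a DNA-binding partner of the Pcgf6 complex (0.49 ± 0.17, SE; limma adjusted p = 0.298). Yaf2, a relative of Rybp (0.48 ± 0.18, SE; limma adjusted p = 0.340), and Scml2 (0.47 ± 0.14, SE; limma adjusted p = 0.236) were higher too. Of the chromobox paralogs Cbx2 lay between 9.60 and 10.18 over all arrays and Cbx8 between 6.70 and 7.34, and limma called neither in any comparison.

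**Figure D4:**
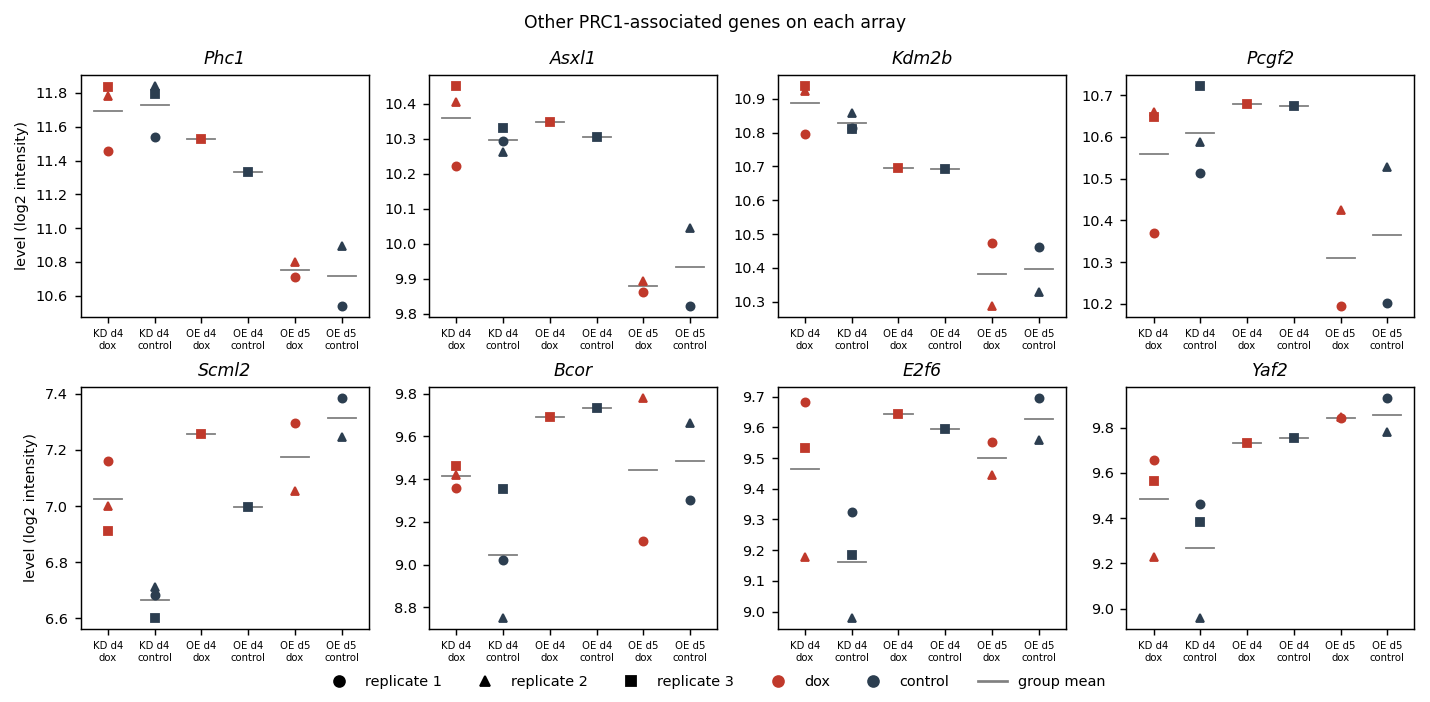
Level (log2 intensity, y axis) of 8 other genes of the PRC1 list on each array, by line, day (d4, d5) and treatment, with replicate numbers as symbols and group means as grey lines. Asxl1 is a partner of the H2A deubiquitinase Bap1. Phc1, Asxl1, Kdm2b and Pcgf2 are lower on all 4 day 5 arrays than on the 2 day 4 arrays of the overexpression line, and Scml2 is higher on all 3 knockdown dox arrays than on the 3 controls. All 8 genes were picked for a small p in these data.

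Of 14 H3 lysine 27 demethylase and trithorax genes, whose products oppose polycomb, limma called 0 in every comparison. Kdm6b, a lysine 27 demethylase, differed by 0.19 ± 0.15 (SE; limma adjusted p = 0.965) with dox in the knockdown line. It was higher by 0.56 ± 0.19 (SE) in the overexpression line against the knockdown line on day 4 (limma adjusted p = 0.276). Setd1a, an H3 lysine 4 methyltransferase, was lower on day 5 by -0.50 ± 0.14 (SE; limma adjusted p = 0.138). The list had a median of -0.16 for day 5 against day 4, and all tested genes 0.00.

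Of 40 tested developmental genes known as polycomb targets in ES cells, limma called 0 with dox in either line. The medians were -0.01 in the knockdown line and 0.00 in the overexpression line, against 0.01 over all genes in each. Evx1, a homeobox gene of the primitive streak, stood at 8.53, 7.22 and 8.25 with dox in the knockdown line, against 7.18, 6.63 and 7.71 without (0.82 ± 0.33, SE; limma adjusted p = 0.965). Those groups overlapped, since dox replicate 2 lay below control replicate 3. Dlx2, a homeobox gene of the forebrain, differed by -0.34 ± 0.15 (SE; limma adjusted p = 0.965) there. Between the lines on day 4 limma called 2 of the 40, both higher in the overexpression line, against 0.307% of all genes, and 11 were higher and 1 lower at an unadjusted p under 0.05, against 11.6%. Wnt5a, a secreted Wnt ligand, stood at 8.60 and 8.53 on the overexpression arrays and between 5.59 and 6.72 on the knockdown arrays (2.81 ± 0.43, SE; limma adjusted p = 0.0305). Evx1 differed by 2.64 ± 0.41 (SE; limma adjusted p = 0.0321). Evx1 and Eomes are also on the primitive streak list, all 10 genes of which were higher there. Sox17, Gata4 and Foxa2 are also on the endoderm list, so the counts of these lists are not separate. With each pair of equal-numbered arrays averaged, limma called 0 genes between the lines on day 4. On day 5 Sox17, an endoderm and endothelial factor, was higher than on day 4 by 1.79 ± 0.34 (SE; limma adjusted p = 0.0514).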

How the data were processed

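Total RNA, 1 µg per sample, was made into biotin-labelled sense-strand target by an Affymetrix whole-transcript protocol, per the labels. The authors deposited a linear intensity for every probe set of every array. The sources used here do not say how these were summarised, background-corrected or normalized. Array medians spanned 0.324 on the log2 scale, over the limit of 0.1, so log2(intensity + 1) of the deposited values was quantile-normalized over 35512 probe sets. The brightest probe set annotated to 1 gene alone stood for a gene (19938 genes, symbols from the platform annotation), and genes below the 20th percentile of mean level (6.46) were not tested. One limma model (version 3.58.1, R version 4.3.3) was fitted to all 12 arrays, with separate baselines by line and day, a dox term within each line and replicate numbers not entered (7 residual degrees of freedom). Benjamini-Hochberg adjustment ran over 15950 genes, with calls at an adjusted p under 0.05. The steps were tested on simulated data with independent arrays, so that test does not cover arrays that deviate together.

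Arrays of equal replicate number deviated together in most pairs (correlation 0.60, 0.44 and 0.05 in the knockdown line, 0.79 on day 5), but 1 of 3 knockdown pairs did not, so the numbers were not taken as pairs. The members and the 9 gene lists (156 entries, of which 9 were not analysed here) were chosen with earlier results of these data known. Genes named are the members, Gmnn and Hprt, up to 4 genes of each list with the smallest p in a comparison, Cbx and Pcgf paralogs, and the 2 genes most like each member; Esrrb and Dlx5 were named after their values were seen. Promoters came from RefSeq (GRCm38.p6). Alternatives were a replicate block, pair means, other scalings, pseudocount 50, other filters, mean probe sets, each line alone, day 5 alone, array weights and leaving out each array.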

Additional observations from a re-analysis of the deposited data

Results flagged for a closer look

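Of 142 genes (the members, the tested list genes, Gmnn and Hprt), 12 (8.45%) went one way in all 3 differences between arrays of equal number in the knockdown line and the opposite way in all 3 of the overexpression line, as 4.86% of all tested genes did. They were picked by those values, and limma's test of the difference between the dox effects passed for none of the 12 after adjustment over all genes; 2 of them (Gmnn and Zfp42) had an unadjusted p under 0.05. For Eed, the 1 member among them, the knockdown effect minus the overexpression effect was -0.22 ± 0.22 (SE; limma adjusted p = 1.00), from -0.12, -0.15 and -0.04 in the knockdown line and 0.16, 0.16 and 0.03 in the overexpression line. Gmnn, the targeted gene, differed by -1.32 ± 0.19 (SE; limma adjusted p = 0.614). The pluripotency gene Zfp42 differed by -1.11 ± 0.32 and Esrrb, another of that list, by -0.94 ± 0.91 (SE; limma adjusted p = 1.00 for each). Of the PRC2 subunits Rbbp7 differed by 0.17 ± 0.15 and Phf1 by -0.15 ± 0.11, of the PRC1 subunits Pcgf3 by 0.16 ± 0.13, and the demethylase gene Kdm6b by 0.26 ± 0.22 (SE; limma adjusted p = 1.00 for each). Of the developmental and primitive streak genes, Eomes differed by 1.19 ± 0.79, Lhx1 by 1.08 ± 0.96, Foxa2 by 0.76 ± 0.51 and Dlx5 by -0.30 ± 0.21 (SE; limma adjusted p = 1.00 for each).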

How the results depend on the processing

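The 50 member differences (10 genes, 5 comparisons) were recomputed under 11 alternatives, giving 470 values, of which 460 kept their direction and their side of the threshold. The direction turned for Ezh1 in the knockdown line without quantile normalization (-0.04), for Mtf2 in the knockdown line (0.04) and in the difference between dox effects (0.09) with median centring, and for Ring1 in the overexpression line with array weights (-0.02). Another 5 values with the opposite sign rounded to 0.00: Ezh2 for day 5 against day 4 with array weights, and, between lines on day 4, Ezh2 with pair means, Ezh1 with array weights, Eed with mean probe sets and Mtf2 with median centring. Array weights also called 1 member, Bmi1, for day 5 against day 4 (0.65, limma adjusted p = 0.0208); the cause was not tested. Over all genes, the calls for day 5 against day 4 (89 in the reported fit) ranged from 0 to 151 outside array weights and were 2567 with them. The calls between lines on day 4 (49) ranged from 0 to 80 and were 1170 with them, and those for dox in the overexpression line (1) from 0 to 1 and were 201 with them.

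With the replicate number as a block, limma called 0 members in every comparison. The block was a fixed term for the dox effects and their difference. For the comparisons of days and of lines it was a common correlation between arrays of equal number within a line. The block narrowed the SE of dox differences, in the knockdown line from 0.16 to 0.06 for Eed and from 0.22 to 0.08 for Cbx7. The numbers do not pair the samples by the labels. The genes with an unadjusted p under 0.05 were 1941 with the block and 599 without it in the knockdown line, 572 and 149 in the overexpression line, and 1384 and 340 for the difference between dox effects. Rnf2 in the overexpression line (-0.18, limma adjusted p = 1.00) and the Eed difference between dox effects (-0.22, limma adjusted p = 0.566) were among them. Calls were 0 with the block, against 89, for day 5, and 25, against 49, between lines.

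Leaving out 1 array at a time gave 0 members called in every comparison. Of 600 such member values 48 changed direction. In the knockdown line the dox differences that did so ranged from -0.14 to 0.28 for Ezh1, -0.11 to 0.15 for Suz12, -0.15 to 0.02 for Mtf2 and -0.05 to 0.12 for Rnf2. In the overexpression line they ranged from -0.06 to 0.05 for Ezh2, -0.23 to 0.08 for Ezh1, -0.03 to 0.23 for Eed, -0.16 to 0.06 for Suz12, 0.00 to 0.09 for Jarid2, -0.09 to 0.03 for Mtf2, -0.11 to 0.13 for Ring1, -0.45 to 0.21 for Bmi1 and -0.12 to 0.38 for Cbx7. The difference between dox effects ranged from -0.02 to 0.10 for Ezh2, -0.07 to 0.36 for Ezh1, -0.07 to 0.19 for Suz12, -0.12 to 0.04 for Mtf2 and -0.49 to 0.01 for Cbx7. Day 5 minus day 4 ranged from -0.03 to 0.06 for Ezh2, -0.20 to 0.01 for Eed and -0.15 to 0.03 for Ring1. The overexpression line minus the knockdown line on day 4 ranged from -0.01 to 0.06 for Ezh2, -0.28 to 0.14 for Ezh1, -0.21 to 0.04 for Suz12 and -0.15 to 0.01 for Mtf2. The number of arrays limits the precision throughout.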
